A study of Mus musculus with 12 samples.

Results

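The step from the Early to the Late group, between the first hours after learning and day 5, was followed in RNA of sorted mouse hippocampal nuclei. The members were libraries Late 1 to 3 and Early 1 to 3, 6 of the 12 in the series. They were compared over all genes with a count of 10 or more in at least 3 of the 12 libraries, which were 15668 of the 24015 genes in the table. Basal and Reactivated, with 3 libraries each, make up the rest of the series and share the fit.

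All 4 groups came from mice that carry ArcCreERT2 together with R26R-STOP-floxed-, an allele for yellow fluorescent protein, written eYFP in the labels, and the genotype field is +/+. In such mice a tamoxifen-dependent Cre recombinase under control of the Arc gene switches on the reporter for good in cells in which Arc is active while the drug is present. No age is given in the labels, and which allele the genotype field refers to is not stated. Every mouse had 24 h of darkness, then a single dose of 4-hydroxytamoxifen 1 h before contextual fear conditioning. Brains were taken after 1.5 to 2 h, or on day 5 after 48 h more of darkness and a return to normal light, with part of the later mice exposed again to the cue. All 12 libraries carry an identical treatment entry (foot shock and collection on day 0, no recall), so Early and Late were taken from the titles alone, and their collection times are read from those titles and the protocol. No label ties a title to a sorting gate, so it is also not stated whether Early and Late nuclei were sorted for Arc protein, for the reporter or for both. Hippocampi of 10 to 12 mice were pooled to reach 10000 nuclei per condition, and each condition was made in 3 biological replicates. Fixation was in 1% paraformaldehyde, and the sort used antibodies against GFP, Arc and the neuronal protein NeuN. The reporter marks only cells with active Arc and a drug pulse, and the labels do not say how complete the marking was.

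A memory is first held by changes in existing synaptic proteins and then consolidated over hours to days, which needs new transcription. Neuronal firing opens calcium channels and glutamate receptors, and the resulting kinase cascades act on CREB, SRF and MEF2 at DNA. These factors switch on immediate early genes such as Fos, Egr1, Npas4 and Arc, whose products in turn set the levels of growth factors, channels and synaptic scaffolds. Neurons that were active at learning and are needed at recall are called engram neurons, and the study's title places its groups among them.

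The Early libraries held 6378949, 9635754 and 9653364 counts and the Late libraries 10794998, 9705505 and 11120255, with 17659 to 18643 genes above 0 in a library. Rn45s, the precursor of ribosomal RNA, took 6.23%, 6.36% and 12.9% of counts in Early and 35.7%, 36.5% and 27.9% in Late. It lay above every Early library in every Late one (exact two-sided permutation p = 0.1, the smallest that 3 against 3 can give). TMM scaling, which sets libraries to a common level over most genes, used factors of 1.06 to 1.28 in Early and 0.657 to 0.821 in Late. Scaling to the same total instead moved the median log2 fold change of all genes from -0.03 to -0.78, upper quartile scaling moved it to -0.25, and use of the counts with no scaling to -0.46. Levels below are TMM-normalised counts, and changes are relative to the typical gene.

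The replicates were unequally spaced. Early 1 and Early 2 differed by a median chi-square of 1.19 per gene and Late 1 and Late 2 by 0.822, against 0.455 for sampling noise alone and 5.83 to 7.47 for the other pairs. These close pairs still differed beyond sampling noise, which does not show whether they came from separate pools of mice. They were counted as separate samples because the protocol speaks of 3 biological replicates. Early 3 and Late 3 leaned toward each other. Late 3 was the lowest Late library for 72% of the genes that rose, and Early 3 the highest Early library for 67.2% of them. Of the genes that fell, Late 3 was the highest Late library for 60.3% and Early 3 the lowest Early library for 71.4%.

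Markers of neuronal nuclei were abundant. All 11 markers of neuronal nuclei were tested, of which 3 rose and 1 fell. Their summed level was 187740 to 213060 in Early and 194890 to 214890 in Late. Most of that sum was Meg3, a long noncoding RNA, so it says little of the other markers. Rbfox3, which encodes NeuN, read 1596, 1624 and 2033 in Early and 2315, 2346 and 2138 in Late, with every Late library above every Early one. Its log2 fold change of 0.37 ± 0.13 (adjusted p = 0.0369) was lost in 4 of the 6 fits with 1 library left out (0.142 without Early 1), and it turned negative with a correction for GC content, with libraries scaled to the same total and with no scaling. In bulk RNA of this kind, fewer cells of a type and less RNA of a gene per cell cannot be told apart.

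Between Early and Late, 3441 genes rose and 3187 fell, which is 22% and 20.3% of those tested and 42.3% together. A change of at least 2-fold was passed by 1856 genes that rose (11.8%) and 1618 that fell (10.3%). In 59.9% of all tested genes the 3 Late libraries lay all above (29.5%) or all below (30.4%) the 3 Early ones, so a gap between the groups is common here and says little of a single gene. Every count of a gene list below is to be read against these shares. The test was edgeR's quasi-likelihood test with Benjamini-Hochberg adjustment over all genes tested, changes are log2 fold changes of Late over Early ± SE, and a gene rose or fell where its adjusted p was under 0.05. Without Early 3 and Late 3, 3473 genes rose and 2875 fell, of which 3103 and 2630 were calls of the full set. With libraries 1 and 2 of each group summed to 1 sample, 1933 rose and 1410 fell, each among the calls of the full set. With a term for the Rn45s percentage added to the model 61 rose and 33 fell; that percentage moves with the groups, and the 2 cannot be told apart in this model.

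**Figure D1:**
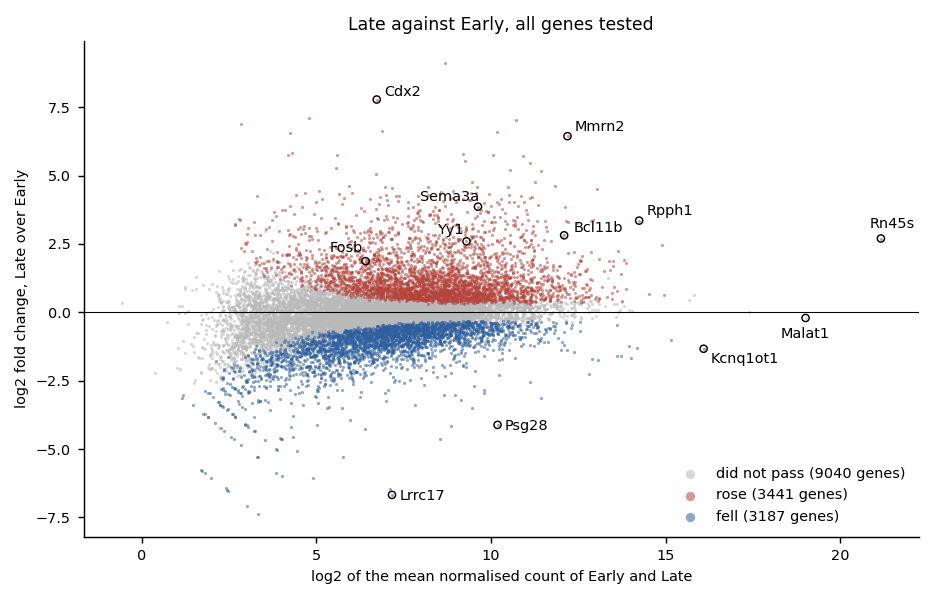
Log2 fold change of Late over Early (vertical axis) against log2 of the mean normalised count of the 6 libraries (horizontal axis), 1 point per gene tested. Red points rose (3441 genes), blue points fell (3187 genes) and grey points did not pass the adjusted p of 0.05; circled genes are named in the text.

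Among named genes with at least 50 normalised counts in the higher group, the 2 largest rises were of genes nearly silent in Early. Cdx2, a homeobox factor of the intestine and the trophoblast, read 1.04, 0 and 1.67 in Early and 261, 206 and 166 in Late. These are 3 counts in all Early libraries against 551 in Late, a ratio of 249 with an exact 95% interval of 84.7 to 1210 that covers counting error only. Abca15, a lipid transporter gene, had 1 count in Early and 141 in Late, a ratio of 191 (exact 95% interval 33.7 to 7599). Both were also low in Basal, with means of 2.33 and 0.853, and in Reactivated, with means of 2.65 and 1.84.

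Mmrn2, an extracellular protein gene of blood vessels, read 94.99, 71.8 and 153 in Early and 12216, 11379 and 4109 in Late, a log2 fold change of 6.44 ± 0.46 (adjusted p = 1.82e-07). Late 3 was the lowest Late library and Early 3 the highest Early one, and the groups stayed far apart. Suclg2, a subunit of the citric acid cycle enzyme succinyl-CoA ligase, read 135, 150.4 and 162 in Early and 7257, 5948 and 2948 in Late (5.17 ± 0.44). Srd5a3, which makes the lipid carrier dolichol for glycosylation, read 190.0, 176 and 157 in Early and 5165, 4227 and 4675 in Late (4.75 ± 0.30), with Late libraries close to one another. Sox8, an oligodendrocyte and glial factor, rose by 4.59 ± 0.42, Pdk4, a kinase that shuts off pyruvate dehydrogenase, by 4.36 ± 0.30, and Dlk1, a Notch-family ligand imprinted on chromosome 12, by 4.39 ± 0.25. The others of the 15 were Nrp (5.46), Adh6-ps1 (5.20), Gbp5 (5.04), Slc25a34 (4.62), Fam217a (4.53), Tmem38b (4.51) and Pigr (4.43). Nrp overlaps Alkbh1 and Slirp in the later reference annotation, and Tmem38b overlaps a ribosomal RNA gene there, so reads of those neighbours cannot be told apart from theirs.

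The largest falls were of genes with clear levels in Early. Lrrc17, a leucine-rich repeat protein gene, read 335, 244 and 273 in Early and 1.20, 6.61 and 0.934 in Late, a log2 fold change of -6.68 ± 0.41 (adjusted p = 6.9e-08). Its mean in Reactivated was 964, and its Basal mean 138, so Late had the lowest mean of the 4 groups. Psg28, of the pregnancy-specific glycoproteins, read 2109.5, 2277 and 2222 in Early and 112, 155 and 116 in Late (-4.12 ± 0.21). Smn1, whose product assembles the spliceosomal snRNPs and whose loss causes spinal muscular atrophy in humans, read 1267, 1359 and 1271 in Early and 106, 114 and 127 in Late (-3.49 ± 0.19, adjusted p = 4.32e-08). For Psg28 and Smn1 the libraries within a group lay close together, and for all 3 genes the groups were far apart.

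Gsta3, a glutathione transferase, fell by 4.16 ± 0.36 and Tuba1b, an alpha-tubulin, by 3.08 ± 0.46. Slfn8 (-4.28) and Slfn9 (-3.03), neighbours of the Schlafen family with closely similar sequences, both fell, and how reads they share were counted is not stated. The rest of the 15 were Serpinb9d (-3.49), Igip (-3.09), Cenpp (-3.07), Slc6a18 (-2.96), Gimap8 (-2.91), Zfp758 (-2.89), Ttr (-2.83) and Zfp946 (-2.80). Cenpp spans 5 other protein-coding or pseudogene loci in the later annotation. Ttr, the transthyretin of the choroid plexus, read 2217, 1999 and 427 in Early and 226, 202 and 224 in Late, so Early 3 was far below the other Early libraries and still above all of Late.

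The 10 genes of highest level that rose at least 2-fold included a pair of structural RNAs. Rpph1, the RNA subunit of RNase P, read 2862, 2188 and 5308 in Early and 44604, 44831 and 16330.4 in Late (3.35 ± 0.45), and Rn45s rose by 2.70 ± 0.44 (adjusted p = 0.000267). Hnrnpu, a nuclear matrix RNA-binding protein, read 3814, 4348 and 6651 in Early and 21728, 20306 and 12816 in Late (1.89 ± 0.25), and the SR-related splicing factors Rbm25 and Luc7l3 rose by 2.25 ± 0.28 and 1.71 ± 0.22. Sptbn4, a spectrin of the axon initial segment, rose by 1.42 ± 0.26, Plec, the cytolinker plectin, by 1.80 ± 0.31, and Chd5, a neuronal chromatin remodeller, by 1.87 ± 0.28. Lmtk3 (1.92) and Fyco1 (1.56) completed the 10. Hnrnpu overlaps Cox20 and Fyco1 overlaps Cxcr6 in the later annotation, so their reads may be mixed. In each of these 10 genes Early 3 was the highest Early library and Late 3 the lowest Late one, and the groups did not overlap.

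Of the 10 genes that fell at the highest levels, Kcnq1ot1, the long noncoding RNA that silences the imprinted Kcnq1 domain, came first. It read 93098, 107316 and 98275 in Early and 38841, 38054 and 41731 in Late, a log2 fold change of -1.33 ± 0.12 (adjusted p = 1.76e-06), and it lies within Kcnq1. Prnp, the prion protein, fell by 1.18 ± 0.17, Stxbp5l, a tomosyn that restrains transmitter release, by 1.10 ± 0.17, and Ifnar1, a type I interferon receptor chain, by 1.09 ± 0.14. The others were Grk4 (-1.60), Zfp488 (-1.74), Olfr613 (-2.26), Synj2bp (-1.70), Vmn1r58 (-1.37) and Zfp277 (-1.08). Olfr613 and Vmn1r58 belong to large families of odorant and pheromone receptors with similar members, so their reads may be shared.

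Immediate early transcription factors were split. Of the list, 4 of 19 tested rose and 3 fell, with a median of 0.13 against -0.03 for all genes and shares near those of all genes (22% and 20.3%). Fosb, a Fos-family partner of Jun that accumulates with repeated activity, read 40.7, 29.0 and 40.1 in Early and 149, 116 and 134 in Late. All Late libraries were at least 116 and no Early library passed 40.7, a log2 fold change of 1.87 ± 0.24 (adjusted p = 3.41e-05). Fosl2, of the same family, read 193, 173 and 177 in Early and 305, 325 and 324 in Late (0.81 ± 0.21, adjusted p = 0.00636). Jund (0.74) and Ier5 (0.80) also rose, but their calls were lost in 4 and in 3 of the 6 fits with 1 library left out (adjusted p up to 0.115 and 0.108, both without Early 2) and with the GC correction (0.817 and 0.0539).

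Nr4a2, an orphan nuclear receptor, read 408, 404 and 169.5 in Early and 147, 132 and 168 in Late. Early 1 and 2 stood high while Early 3 was just above the highest Late library. Its fall of -1.13 ± 0.34 (adjusted p = 0.0167) lost its call in 4 of the 6 fits with a library left out (0.0748 without Early 2). Egr1, a zinc-finger factor of synaptic plasticity, read 262, 219 and 179.6 in Early and 142, 133 and 165 in Late (-0.58 ± 0.19, adjusted p = 0.0223, lost in 4 of those 6 fits, and 0.113 without Early 1). Klf10 fell by 0.68 ± 0.25 and lost its call in 5 of the 6 fits with a library left out (0.152 without Early 1) and with the GC correction (0.0782). The groups did not overlap in these 3 genes.

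Arc itself read 554, 337 and 415 in Early and 602, 635 and 541 in Late, with overlap between the groups (0.45 ± 0.22, adjusted p = 0.117). Npas4, a neuron-specific factor switched on by calcium, read 144, 178 and 133 in Early and 186, 149 and 164 in Late (0.13 ± 0.18, adjusted p = 0.588). Nr4a1 read 387, 357 and 347 in Early and 349, 378 and 404 in Late (0.05 ± 0.18, adjusted p = 0.831), and Fos had 17.7, 18.6 and 15.9 in Early and 26.4, 17.2 and 18.7 in Late (0.25 ± 0.47, adjusted p = 0.696). None of these 4 passed. With libraries scaled to the same total, where all genes shift by a median of -0.78, Npas4 read -0.63 and Nr4a1 -0.70. Their Basal means were lower, at 145 for Arc, 63.6 for Npas4, 139.5 for Nr4a1 and 7.19 for Fos, and all 4 passed in Late against Basal (log2 fold changes of 2.02, 1.38, 1.43 and 1.45), a comparison in which 49.1% of all genes passed.

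**Figure D2:**
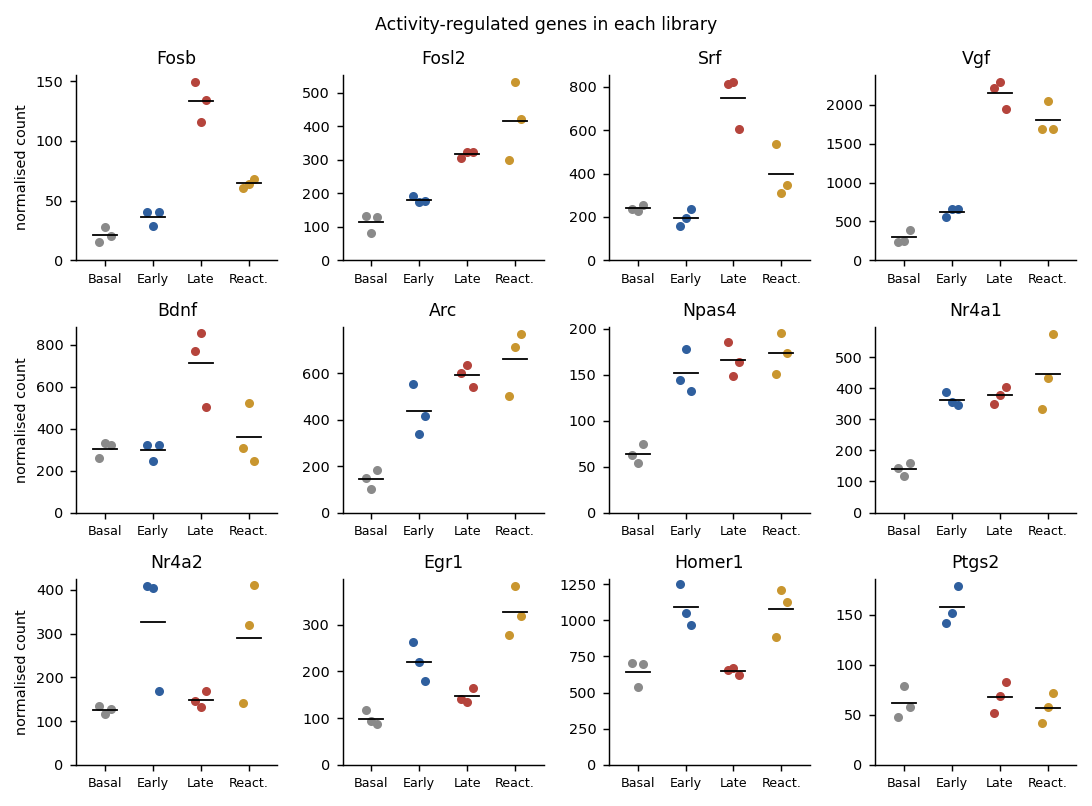
Normalised count (vertical axis, starting at 0) of 12 activity-regulated genes in each library of Basal, Early, Late and Reactivated; points are libraries and black lines are means of 3. Fosb, Fosl2, Srf, Vgf and Bdnf lay above Early in every Late library, Nr4a2, Egr1, Homer1 and Ptgs2 were lower in every Late library, and Arc, Npas4 and Nr4a1 overlapped.

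The promoters of 5 of these activity-regulated genes, 2 that rose and 3 that fell (Homer1 not with the GC correction), are shown to let the elements at their start sites be compared. Each is the RefSeq window of GRCm38.p6 from 250 bases before to 50 bases after the start, written 5′ to 3′ on the gene's strand, and a later build than the mm9 named for the counts. Capitals mark matches on either strand to the EGR element (GCGNGGGCG), the CCAAT box (CCAAT), the TATA box (TATAAA) or the E-box (CACGTG). The cAMP response element (TGACGTCA) and the AP-1 element (TGANTCA) were searched as well, in full length only, and had no full match in these windows. Shorter parts of the cAMP response element, such as those in the Homer1 and Ptgs2 windows, were not searched. The serum response element, at which SRF binds, was searched only as a fixed sequence. It was in 0% of windows of genes that rose, Srf included, and in 0.03% of all windows. Its variant forms, such as those left in lower case in the Srf window, were not searched. Their lack of capitals is thus no sign that the element is absent. Whether CREB or SRF binds at these promoters was not tested.
Fosb promoter, chr7:19309996-19310295, minus strand: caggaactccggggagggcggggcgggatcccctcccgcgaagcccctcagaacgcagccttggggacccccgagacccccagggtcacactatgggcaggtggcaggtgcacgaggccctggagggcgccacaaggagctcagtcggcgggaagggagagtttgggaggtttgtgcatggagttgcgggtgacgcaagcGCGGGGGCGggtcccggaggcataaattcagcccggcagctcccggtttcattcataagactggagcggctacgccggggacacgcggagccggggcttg
Srf promoter, chr17:46556113-46556412, minus strand: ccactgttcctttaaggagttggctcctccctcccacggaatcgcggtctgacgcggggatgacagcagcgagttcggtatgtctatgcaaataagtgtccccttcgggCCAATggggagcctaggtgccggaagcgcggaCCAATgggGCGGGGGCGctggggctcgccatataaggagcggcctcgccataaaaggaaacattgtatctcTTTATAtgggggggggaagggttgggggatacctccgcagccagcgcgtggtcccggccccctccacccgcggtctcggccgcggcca
Nr4a2 promoter, chr2:57123954-57124253, minus strand: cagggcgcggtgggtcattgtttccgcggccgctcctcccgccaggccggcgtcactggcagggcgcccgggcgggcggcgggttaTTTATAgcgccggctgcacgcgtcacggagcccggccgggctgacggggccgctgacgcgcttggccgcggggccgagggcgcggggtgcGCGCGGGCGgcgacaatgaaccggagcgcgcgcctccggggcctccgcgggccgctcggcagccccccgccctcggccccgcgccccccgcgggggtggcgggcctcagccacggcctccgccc
Homer1 promoter, chr13:93303507-93303806, plus strand: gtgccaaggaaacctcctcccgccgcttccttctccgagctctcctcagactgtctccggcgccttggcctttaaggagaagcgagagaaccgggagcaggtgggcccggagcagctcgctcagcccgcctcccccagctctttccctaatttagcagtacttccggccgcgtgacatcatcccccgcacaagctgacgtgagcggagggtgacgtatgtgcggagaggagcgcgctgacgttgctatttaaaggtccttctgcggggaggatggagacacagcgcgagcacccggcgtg
Ptgs2 promoter, chr1:150099781-150100080, plus strand: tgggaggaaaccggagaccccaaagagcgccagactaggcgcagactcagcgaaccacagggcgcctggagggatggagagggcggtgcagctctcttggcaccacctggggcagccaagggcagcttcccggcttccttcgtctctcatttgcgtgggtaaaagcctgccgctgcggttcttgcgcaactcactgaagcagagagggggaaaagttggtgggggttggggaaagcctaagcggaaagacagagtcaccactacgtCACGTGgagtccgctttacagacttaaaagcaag
The EGR element, at which EGR1 and its relatives bind, was matched in Fosb, Srf and Nr4a2, so it was present in genes of both directions. Among the 12065 tested genes with a window, 10.3% held it, with 12.2% of those that rose and 9.35% of those that fell. CCAAT boxes were matched in Srf (38.3% of all windows), TATA boxes in Srf and Nr4a2 (7.71%) and an E-box in Ptgs2 (9.73%). Both TATA matches read TTTATA, so they lie on the opposite strand, and the place of a match in the window was not weighed. Homer1 has 2 start sites in the table, of which the first is shown, and it held no full match to these elements. The full cAMP response element was in 3.43% of windows of genes that rose, 3.02% of those that fell and 3.03% of all. The median GC content of the windows was 61.7% for genes that rose, 59% for those that fell and 60.3% for all.

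Among the upstream factors, Srf, which with its cofactors drives Fos and actin genes, read 158, 197 and 236 in Early and 811, 823 and 607 in Late (1.92 ± 0.21, adjusted p = 9.01e-06). Atf1, a CREB-family member, read 268, 280.1 and 269.8 in Early and 721, 617 and 727 in Late (1.34 ± 0.17), and Sik1, an activity-induced kinase that restrains CREB coactivators, rose by 1.42 ± 0.29. Creb1 itself read 329.8, 291 and 257 in Early and 126, 201 and 171 in Late (-0.82 ± 0.20, adjusted p = 0.00439, lost with the GC correction at 0.0838), and Mef2a, of a family that limits synapse number, 714, 688 and 501 in Early and 269, 232 and 299.8 in Late (-1.24 ± 0.16). Every Late library lay above every Early one for Srf, Atf1 and Sik1 and below for Creb1 and Mef2a. Of the CREB family and coactivators 5 of 15 tested rose and 4 fell, with a median of -0.04.

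Effector genes of activity changed in both directions. Of the list 2 of 19 tested rose and 6 fell, against 22% and 20.3% of all genes, with a median of -0.15. With a correction for GC content 2 rose and 3 fell. By at least 2-fold, 2 rose and 1 fell. The list of 20 summed to 8687 to 10160 normalised counts in Early and 10286 to 11247 in Late, so the sum does not follow the median. Vgf, the precursor of secreted neuropeptides, read 552, 662 and 655 in Early and 2213, 2288 and 1946 in Late (1.79 ± 0.18, adjusted p = 4.06e-06). Bdnf, the neurotrophin needed for lasting potentiation, read 321, 247 and 324 in Early and 771, 855 and 504 in Late (1.25 ± 0.25, adjusted p = 0.00131), with Late 3 lowest of its group. Both genes had Late libraries all above Early.

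Ptgs2, the activity-induced cyclooxygenase, read 142, 152 and 179 in Early and 51.6, 68.7 and 83.1 in Late (-1.21 ± 0.25, adjusted p = 0.00163). Homer1, a postsynaptic scaffold with a short activity-induced form, read 1250.5, 1049 and 967 in Early and 653, 667 and 620.0 in Late (-0.75 ± 0.16, adjusted p = 0.00165), a call lost with the GC correction (-0.26, adjusted p = 0.234). The 2 genes had no overlap between groups, and the Basal mean of Homer1 was 645. Inhba, an activin subunit (-0.91 ± 0.24), Rheb, the GTPase that activates mTORC1 (-0.97 ± 0.21), and Nrn1, a membrane protein of spine growth (-0.86 ± 0.24), fell too. Counts per gene do not separate the short and long forms of Homer1. The call of Nrn1 was lost without Early 1 (adjusted p = 0.0536) and that of Inhba with the GC correction (0.0768).

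Other signal-regulated groups differed in how many members passed. Of 12 feedback inhibitors of the ERK and MAP kinases, 1 rose and 1 fell. The riser was Spry2, which blocks growth factor signals to Ras, at 251, 244 and 418 in Early and 1694, 1643 and 692 in Late (2.14 ± 0.46, adjusted p = 0.00211). Of the glucocorticoid receptors and their targets 3 of 10 tested rose and 4 fell. Tsc22d3, a classic hormone target, read 173, 178 and 150.3 in Early and 414, 373 and 354 in Late (1.18 ± 0.16), while Sgk1, also a target, read 390.4, 297 and 315 in Early and 162, 168 and 175 in Late (-0.99 ± 0.16). These 2 targets of the same receptor thus moved apart, each without overlap. Of the circadian clock genes 5 of 18 tested rose and 1 fell, led by the nuclear receptors Rorb (2.62 ± 0.49) and Rora (1.29 ± 0.18).

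**Figure D3:**
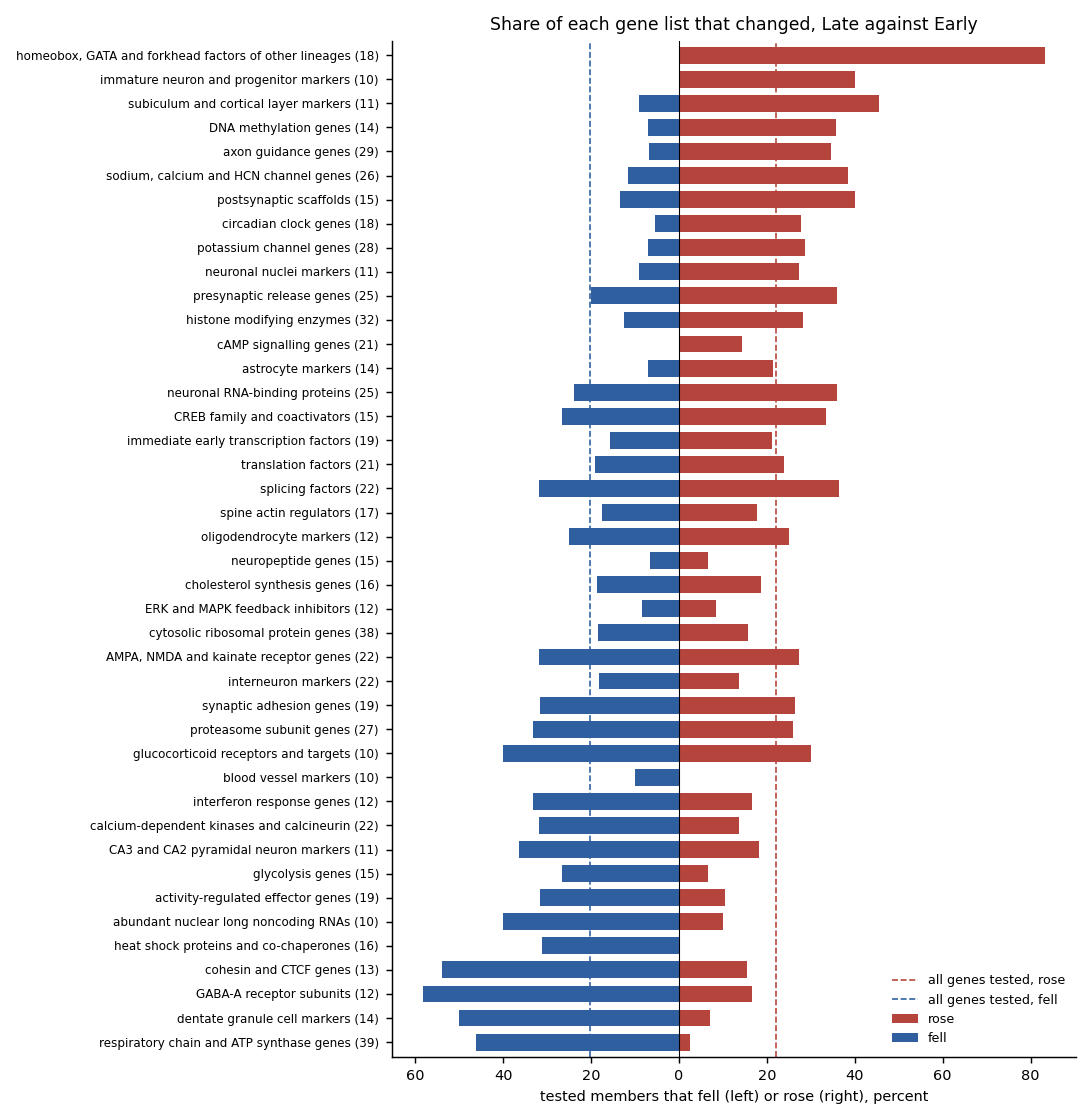
Percent of tested members of each gene list with at least 10 tested members that rose (red, right) or fell (blue, left) in Late against Early; the number tested is in brackets and dashed lines give the shares over all genes tested. Factors of other lineages reach furthest to the right (15 of 18 rose), with 18 of 34 listed members tested. A member silent in Early could pass the count filter only through other groups, Late included, so that share is given with no further reading. GABA-A receptor subunits (7 of 12 fell), cohesin and CTCF genes (7 of 13), dentate granule cell markers (7 of 14) and the respiratory chain (18 of 39) reach furthest to the left.

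Receptors for glutamate, the main excitatory transmitter, were divided. Of the AMPA, NMDA and kainate receptors and their auxiliary subunits 6 of 22 tested rose and 7 fell, with a median of -0.26. The kainate receptor subunit Grik3 read 624, 714 and 524 in Early and 1829, 1736 and 1612 in Late (1.47 ± 0.16, adjusted p = 8.23e-06), and the NMDA receptor subunit Grin2d rose by 1.14 ± 0.23 (adjusted p = 0.00146, and 0.0554 with the GC correction). Cacng8, the AMPA receptor auxiliary subunit of the hippocampus, read 326, 324 and 378 in Early and 673, 758 and 789 in Late (1.11 ± 0.13). In the other direction, Grin2b, the NMDA receptor subunit of slow currents, read 6429.8, 6065 and 5454 in Early and 3886, 3815 and 4296 in Late (-0.58 ± 0.13, adjusted p = 0.0021). Gria2, which makes AMPA receptors impermeable to calcium, fell by 0.46 ± 0.14, but its call was lost without Early 1 (adjusted p = 0.0615) and its sign turned with the GC correction.

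GABA-A receptor subunits, which form the chloride channels of fast inhibition, held more falls than rises. Of the list 2 of 12 tested rose and 7 fell, against 22% and 20.3% of all genes, with a median of -0.71. Gabra5, the alpha subunit of tonic inhibition in the hippocampus, read 467, 389.8 and 381 in Early and 228, 227 and 245 in Late (-0.82 ± 0.18, adjusted p = 0.00236), with every Late library below every Early one. Gabra3 went the other way, at 149, 178 and 96.9 in Early and 556, 509 and 439.8 in Late (1.82 ± 0.23, adjusted p = 3.39e-05).

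Transcripts of this list are poor in GC, with a median of 42.1% against 49.6% for all genes, and 37.0% of all genes with 40 to 45% GC fell. With the GC correction 2 rose and 4 fell, with a median of -0.41. Without Early 3 and Late 3, 1 rose and 6 fell, and with libraries 1 and 2 summed 1 rose and 2 fell.

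Of the postsynaptic scaffolds 6 of 15 tested rose and 2 fell, with a median of 0.30. Shank3, a master scaffold of the excitatory synapse, read 1196, 1217 and 1849.9 in Early and 2704, 2715 and 2312 in Late (0.86 ± 0.20, adjusted p = 0.00363, and 0.0867 with the GC correction), and Dlgap3, which links Shank to PSD-95, rose by 1.10 ± 0.21. Dlg2, a relative of PSD-95, read 2901, 2871 and 2335 in Early and 1637, 1672 and 1856 in Late (-0.65 ± 0.13). With the GC correction 2 rose and 1 fell on this list.

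Of the presynaptic release genes 9 of 25 tested rose and 5 fell, with a median of 0.32. Cplx2, a complexin that clamps and promotes fusion of synaptic vesicles, read 1753, 1534 and 2425 in Early and 10825, 8823 and 6509 in Late (2.19 ± 0.23, adjusted p = 6.41e-06). Rims1, an active-zone scaffold, read 2011, 2044 and 4022 in Early and 9763, 9439 and 6285 in Late (1.66 ± 0.26). Snap25, a SNARE of vesicle fusion, read 4513, 3728 and 3762 in Early and 2616, 2505 and 2704 in Late (-0.62 ± 0.13, adjusted p = 0.00212, and 0.287 with the GC correction), and Sv2b, a vesicle glycoprotein, 2072, 1861 and 1709 in Early and 985, 914 and 1141 in Late (-0.89 ± 0.19). None of these 4 genes overlapped between groups. Slc17a7, the vesicular glutamate transporter of excitatory neurons, rose by 0.60 ± 0.14, a value that turned negative with libraries scaled to the same total and did not pass with the GC correction (adjusted p = 0.166).

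Among ion channels, 8 of 28 potassium channel genes rose and 2 fell, and 10 of 26 sodium, calcium and HCN channel genes rose and 3 fell. Kcnk2, a two-pore background potassium channel, read 199, 168 and 275 in Early and 1591, 1428 and 767 in Late (2.56 ± 0.29, adjusted p = 1.27e-05). Cacna1g, a T-type calcium channel, rose by 1.33 ± 0.22. Kcna1, a Kv1 channel of axons, read 1601, 1455 and 1309.6 in Early and 975, 893 and 904 in Late (-0.66 ± 0.16), and Cacna2d1, the alpha2delta subunit bound by gabapentin, 1453, 1381 and 1221 in Early and 722, 697 and 861 in Late (-0.83 ± 0.17). Both of the latter had all Late libraries below Early.

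Of the calcium-dependent kinases and calcineurin genes 3 of 22 tested rose and 7 fell, with a median of -0.03. Ppp3r1, the regulatory subunit of the phosphatase calcineurin, read 1097, 718 and 709.9 in Early and 404, 412 and 337 in Late (-1.13 ± 0.20, adjusted p = 0.000424). Camk1 rose by 1.36 ± 0.32. Camk2a, the kinase most tied to long-term potentiation, read 9959, 9286 and 12374 in Early and 13369.7, 12906 and 13130.2 in Late and did not pass (0.32 ± 0.15, adjusted p = 0.101). Of 21 cAMP signalling genes 3 rose and 0 fell, with Adcy5, an adenylyl cyclase, at 427, 443 and 728 in Early and 2481, 2399 and 1534 in Late (2.00 ± 0.29).

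Genes that shape spines and axons also divided. Of the spine actin regulators 3 of 17 tested rose and 3 fell. Dbn1, the actin-binding drebrin of spines, read 3029, 2807 and 4538 in Early and 11625, 10938 and 8525 in Late (1.58 ± 0.19, adjusted p = 1.77e-05), and Cdc42, a small GTPase, 328, 308 and 247 in Early and 126, 119 and 134 in Late (-1.22 ± 0.19). Of the synaptic adhesion genes 5 of 19 tested rose and 6 fell. Lrrtm2, a postsynaptic partner of the neurexins, fell by 1.01 ± 0.23.

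Axon guidance genes held more rises than falls. Of the list 10 of 29 tested rose and 2 fell, against 22% and 20.3%, with a median of 0.26, and without the number 3 libraries 11 rose and 2 fell. Sema3a, a secreted repellent, read 101, 121 and 81.0 in Early and 2007, 1598 and 832 in Late (3.86 ± 0.31, adjusted p = 4.74e-07). Efna5, an ephrin ligand, read 81.4, 100.0 and 103 in Early and 646, 625 and 599.5 in Late (2.71 ± 0.24), and Epha5, a receptor for it, 2497, 2475 and 2639 in Early and 11069, 9723 and 7508 in Late (1.89 ± 0.15). In these 3 genes the lowest Late library was more than 2-fold above the highest Early one. Dcc, the netrin receptor, rose by 1.91 ± 0.21, and Epha7, another ephrin receptor, fell by 0.81 ± 0.17. Of 15 neuropeptide genes tested 1 rose (Vgf) and 1 fell, which was Npy at 117, 139 and 56.8 in Early and 27.6, 31.7 and 30.8 in Late (-1.79 ± 0.31).

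The order of rises and falls in several of these lists depends on the scaling. With libraries scaled to the same total, 2 rose and 15 fell among presynaptic genes, 0 rose and 8 fell among scaffolds, 4 rose and 16 fell among guidance genes and 1 rose and 15 fell among sodium, calcium and HCN channels. Relative to the shift of all genes in that scaling, the medians of these lists were 0.36, 0.33, 0.27 and 0.36.

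Genes of the respiratory chain and ATP synthase, which make most of a neuron's ATP, held many falls and a single rise. Of the list 1 of 39 tested rose and 18 fell, against 22% and 20.3% of all genes, with a median of -0.52. Cox6c, a subunit of cytochrome c oxidase, read 195, 168 and 96.9 in Early and 28.8, 44.9 and 57.9 in Late (-1.78 ± 0.35, adjusted p = 0.00111). Atp5b, the catalytic beta subunit of ATP synthase, read 936, 749.9 and 699 in Early and 393, 394 and 545 in Late (-0.84 ± 0.16, adjusted p = 0.00106). Ndufc2, of complex I, fell by 2.17 ± 0.49 and Cox7a2 by 1.43 ± 0.31, all without overlap.

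The GC content of this list was like that of all genes, with a median of 49.3%. With the GC correction 1 rose and 21 fell (median -0.58), without the number 3 libraries 1 rose and 18 fell, and with libraries 1 and 2 summed 1 rose and 9 fell. The other scalings left the median of all genes nearly level or moved it down, so they could not lift this list above 0. Relative to the shift of all genes, its median was -0.49 with the same total, -0.49 with upper quartile scaling and -0.46 with no scaling.

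Of 15 glycolysis genes, 1 rose and 4 fell. Aldoa, an aldolase, read 1248, 1030.0 and 1087 in Early and 456, 478 and 582 in Late (-1.15 ± 0.13, adjusted p = 1.34e-05), and Gapdh 493, 442 and 346 in Early and 178, 267 and 256 in Late (-0.87 ± 0.19). Eno1, an enolase with processed copies elsewhere in the genome, had 109 counts in Early and 3 in Late, a ratio of 26.8 with an exact 95% interval of 8.94 to 132. Of the heat shock proteins and co-chaperones 0 of 16 tested rose and 5 fell, among them Hspa8, the constitutive Hsp70 that uncoats vesicles (4694, 3286 and 2596 in Early and 1529, 1489 and 1891 in Late, -1.11 ± 0.20). Of the proteasome subunits 7 of 27 tested rose and 9 fell, with the core subunit Psmb1 at -1.29 ± 0.20 and the regulatory ATPase Psmc2 at 1.28 ± 0.23.

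Ribosomal protein and translation factor genes showed no common direction. Of the cytosolic ribosomal protein genes 6 of 38 tested rose and 7 fell, with a median of -0.14, against 22% and 20.3% of all genes. Rpl4 rose by 0.68 ± 0.15, with a negative value with libraries scaled to the same total. Of the translation factors 5 of 21 tested rose and 4 fell. Eif4e, the cap-binding protein that limits translation in plasticity, read 364, 343 and 264 in Early and 118, 102 and 151 in Late (-1.38 ± 0.18, adjusted p = 4.67e-05), and Eif3a, a scaffold of the initiation complex, 1263, 1208 and 1874 in Early and 3325, 3316 and 2828 in Late (1.12 ± 0.20).

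Of the splicing factors 8 of 22 tested rose and 7 fell. Hnrnpd, which binds AU-rich elements, read 735, 709.9 and 753 in Early and 2979, 2955 and 1739.7 in Late (1.80 ± 0.19), and Sf3b1, of the U2 snRNP, 2939, 2896 and 3148 in Early and 1757, 1707 and 1869 in Late (-0.75 ± 0.12). Of the neuronal RNA-binding proteins 9 of 25 tested rose and 6 fell, with the neuronal splicing regulator Nova2 at 0.86 ± 0.13 and the Hu protein Elavl2 at -1.19 ± 0.19. The groups did not overlap in these 4 genes.

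Chromatin genes included strong single changes. Of 32 histone modifying enzymes 9 rose and 4 fell, with the class II deacetylases Hdac9 (721, 709 and 873 in Early, 2708, 2433 and 2398 in Late, 1.71 ± 0.18) and Hdac5 (1.34 ± 0.26) as the largest rises. Setd2, the enzyme that places H3K36 trimethylation, read 1921, 2003 and 1791 in Early and 1075, 1122 and 1105 in Late (-0.79 ± 0.12, adjusted p = 0.000124). Of the DNA methylation genes 5 of 14 tested rose and 1 fell. Dnmt3a, the de novo DNA methyltransferase of neurons, read 1615, 1743 and 2062 in Early and 3532, 3646 and 3014 in Late (0.91 ± 0.14), and Mbd3, a subunit of the NuRD complex, rose by 1.92 ± 0.25. Tet2, which oxidises methylcytosine, fell by 0.44 ± 0.12 (adjusted p = 0.0104, and 0.0819 with the GC correction).

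The study's design text names promoter-enhancer interactions, and proteins that hold such loops were listed. Of the cohesin and CTCF genes 2 of 13 tested rose and 7 fell, with a median of -0.34. Yy1, a zinc-finger factor that joins enhancers and promoters, read 146, 173 and 215 in Early and 1237, 1203 and 798 in Late (2.59 ± 0.22, adjusted p = 7.41e-07), and Ldb1, a dimerising loop factor, rose by 1.04 ± 0.22. Nipbl, the cohesin loader, read 1538, 1447 and 1133 in Early and 772, 707 and 829 in Late (-0.83 ± 0.18), and Esco1, which acetylates cohesin, 302, 261 and 238 in Early and 88.9, 137 and 142 in Late (-1.12 ± 0.18). The transcripts of this list had a median GC content of 42.4%, and with the GC correction 4 rose and 2 fell.

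Of the abundant nuclear long noncoding RNAs 1 of 10 tested rose and 4 fell. Besides Kcnq1ot1, Neat1, the scaffold of paraspeckles, read 126, 121 and 112 in Early and 60.05, 34.3 and 42.0 in Late (-1.39 ± 0.26), and Rian, of the imprinted chromosome 12 region, fell by 0.67 ± 0.18 (adjusted p = 0.00817, and 0.543 with the GC correction). Malat1 (-0.21 ± 0.14, adjusted p = 0.252) and Meg3 (-0.01 ± 0.16, adjusted p = 0.982) did not pass. Gas5, whose introns hold many snoRNAs, read 1788, 2494 and 3414 in Early and 8809.9, 6899.6 and 12778 in Late (1.89 ± 0.36). Over all 969 long noncoding RNAs tested, 13.6% rose and 33.6% fell.

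SnoRNAs, short nucleolar RNAs that guide pseudouridylation (the Snora, or H/ACA, class) or 2'-O-methylation (the Snord, or C/D, class) of ribosomal RNA, rose in most cases. Of 33 Snora genes tested 30 rose and 0 fell, with a median of 2.70, and of 55 Snord genes 36 rose and 2 fell, with a median of 1.93. The shares of all genes were 22% and 20.3%. SnoRNA and microRNA symbols stand outside the rule by which genes were named, and those named here were chosen after their values were seen. Snora23 had 826, 1057 and 2188 normalised counts in Early and 12298, 14124 and 16020 in Late (log2 fold change 3.38 ± 0.43, adjusted p = 3.13e-05). Snora65 had 68.9, 62.1 and 88.5 in Early and 3187, 3025 and 5199 in Late (log2 fold change 5.70 ± 0.56, adjusted p = 2.99e-06), and Snord33 had 17.7, 21.4 and 36.7 in Early and 2809, 2548 and 4687 in Late (log2 fold change 7.03 ± 0.54, adjusted p = 3.98e-07). In all 3, Late 3 was the highest library rather than the lowest of its group.

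Most snoRNAs are cut from introns of host genes, so host and guide can be compared. Of the Snora and Snord genes, 72 overlapped a single other gene that was tested. Across the 54 such genes the median was -0.06, against 2.09 for these 72 snoRNAs. Snora23 lies in Ipo7, a nuclear import receptor, which had a log2 fold change of -1.22 and fell, and Snora65 lies in Rpl12, at 0.18, which did not pass. Snord58b, in Rpl17, was 1 of the 2 that fell, with 71.0, 112 and 134 in Early and 2.40, 1.32 and 3.74 in Late. Reads of host introns can also fall in these loci, and Rn45s rose in the same libraries; the part of either in this rise was not tested.

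**Figure D4:**
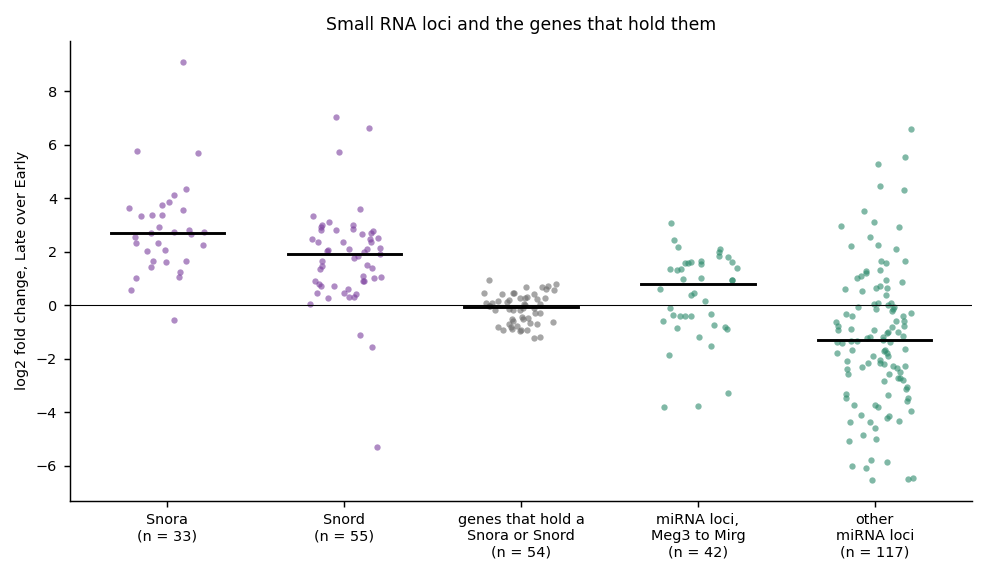
Log2 fold change of Late over Early (vertical axis) for small RNA loci and for the genes that overlap them; each point is 1 locus or gene and black bars are medians. Snora (median 2.70) and Snord (1.93) lie mostly above 0, the 54 genes that hold them lie around 0 (-0.06), and miRNA loci outside the Meg3 to Mirg region lie lower (-1.29) with a wide spread. Levels of miRNA loci were low, with medians of 12.8 normalised counts in Early and 8.32 in Late.

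MicroRNAs silence messenger RNAs that pair with their seed, bases 2 to 8. The counts are of reads at the hairpin locus in nuclear RNA, not of the mature miRNA, whose length these libraries were not made to capture. Of 159 miRNA loci tested 30 rose and 51 fell. In the imprinted region of chromosome 12 from Meg3 to Mirg, which holds a large miRNA cluster, 15 of 42 rose and 5 fell (median 0.78), while 15 of the other 117 rose and 46 fell (median -1.29). Levels were low, with a median over the 159 loci of 12.8 normalised counts in Early and 8.32 in Late. Among all genes in the lowest of 5 equal bins by level, 4.47% rose and 15.3% fell. The mature forms of 7 loci that passed are shown so that their seeds, in capitals, can be compared. They are from RefSeq with GRCm38.p6.
mmu-miR-137-3p: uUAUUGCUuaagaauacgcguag
mmu-miR-9-5p: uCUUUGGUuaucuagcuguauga
mmu-miR-134-5p: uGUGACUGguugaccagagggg
mmu-miR-409-3p: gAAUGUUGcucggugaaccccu
mmu-miR-154-5p: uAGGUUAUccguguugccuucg
mmu-miR-377-3p: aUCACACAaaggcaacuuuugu
mmu-miR-138-5p: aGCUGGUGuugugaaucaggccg
Each of these 7 seeds differs from the others. Mir137, on chromosome 3, whose product acts in neuronal maturation and whose human counterpart is a schizophrenia risk locus, had 1.04, 2.76 and 10.0 normalised counts in Early and 101, 106 and 81.2 in Late (log2 fold change 4.32 ± 0.49, adjusted p = 1.16e-05). Mir134, on chromosome 12, whose product limits spine size through Limk1, had 24.0, 25.5 and 30.9 in Early and 131, 96.4 and 140.1 in Late (log2 fold change 2.19 ± 0.41, adjusted p = 0.000746). Mir138-1, on chromosome 9, whose product also restrains spines, had 96.0, 163 and 225 in Early and 37.2, 14.5 and 29.9 in Late (log2 fold change -2.55 ± 0.41, adjusted p = 0.000208). The groups did not overlap in any of these 3 loci. Mir138-2, which makes the same mature form as Mir138-1, had 18 counts in Early and 14 in Late and did not pass (0.09, adjusted p = 0.914). Mir9-1, on chromosome 3, rose by 3.13. Of the other loci of that mature form, Mir9-3 rose by 2.09 and Mir9-2 did not pass (-1.04, adjusted p = 0.0766). Mir409 (1.84), Mir377 (1.53) and Mir154 (1.37) lie within Mirg in the reference, which itself did not pass (0.37). The 2 largest rises, Mir3068 and Mir6516, lie in Alkbh1 and Snhg20, and the largest fall among loci above 100 normalised counts, Mir6982, lies in Camk2a.

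Transcription factors of other lineages form a list in which the count filter bears on the share of rises. Of homeobox, GATA and forkhead factors that pattern gut, blood, heart or spinal cord, 15 of 18 tested rose and 0 fell, with a median of 2.66, against 22% and 20.3% of all genes. The other 16 of the 34 had too few counts to test, among them Cdx1, Cdx4, Hoxd13, Pax7, Nkx2-5 and Hnf4a with 0 counts in all 6 libraries. Foxa3, a liver and gut factor, read 20.9, 22.1 and 40.1 in Early and 508, 441 and 273 in Late (3.87 ± 0.38, adjusted p = 3.06e-06). Tbx5, a heart factor, read 35.5, 32.4 and 24.2 in Early and 249, 207 and 254 in Late (2.95 ± 0.40), and Nkx2-1, a lung, thyroid and basal forebrain factor, 10.4, 5.52 and 16.7 in Early and 183, 120.2 and 82.2 in Late (3.56 ± 0.45). Gata3 (2.88 ± 0.39) and Dlx3 (4.16 ± 0.51) rose too, and Gata2 had 1 count in Early and 99 in Late, a ratio of 134 (exact 95% interval 23.5 to 5351).

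The members that passed needed counts in at least 3 libraries, which a gene silent in Early could only reach in other groups, so the share of 15 of 18 is given with no further reading. The list summed to 439 to 474 normalised counts in Early and 1926 to 2970 in Late. With the GC correction 15 rose and 0 fell, with the same total 14 rose and 1 fell, and with libraries 1 and 2 summed 13 rose and 0 fell. These counts rest on the same filter and carry the same limit. Late 3 was the lowest Late library for Foxa3, Nkx2-1, Gata3 and Dlx3.

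Markers of hippocampal cell types were compared next, since such pools can differ in their mix of neurons. Of dentate granule cell markers 1 of 14 tested rose and 7 fell, with a median of -0.56. Prox1, the factor that sets granule cell identity, read 265, 299 and 307 in Early and 110.5, 129 and 119 in Late (-1.28 ± 0.34, adjusted p = 0.00817), and Dsp, a desmosomal protein of these cells, 229, 259 and 263 in Early and 101, 84.5 and 72.8 in Late (-1.54 ± 0.38). Their Basal means were far higher, at 1636 and 1167. Calb1 fell by 0.70 ± 0.21 (adjusted p = 0.0141, 0.0824 without Early 1 and 0.424 with the GC correction), and Stxbp6 rose by 1.51 ± 0.25. The list summed to 2649 to 3222 in Early and 2378 to 2620 in Late. With libraries 1 and 2 summed 1 rose and 1 fell.

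Of CA1 markers 3 of 9 rose and 0 fell, including Man1a (1.31 ± 0.25), and of CA3 and CA2 markers 2 of 11 tested rose and 4 fell, with Hs3st4 at 1.17 ± 0.24 and Iyd at -1.48 ± 0.30. Among markers of the subiculum and cortical layers 5 of 11 tested rose and 1 fell, with a median of -0.006. Rorb, given above with the clock genes, is on this list too. Bcl11b, a factor of projection neurons, read 1030.2, 979 and 1252 in Early and 10441, 8111 and 4394 in Late (2.81 ± 0.26, adjusted p = 2.02e-06), and Foxp2 45.9, 46.2 and 42.6 in Early and 434, 450.5 and 227 in Late (3.04 ± 0.28). In both Late 3 was the lowest Late library. Of interneuron markers 3 of 22 tested rose and 4 fell. Of the markers of immature neurons and progenitors 4 of 10 tested rose and 0 fell, with Eomes (4.04 ± 0.45), Neurod1 (1.74 ± 0.26) and Sox11 (1.23 ± 0.16) among those that rose, while Dcx and Sox2 did not pass. Neurod2, a factor of pyramidal neurons, rose by 1.27 ± 0.22.

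Glial lists were split. Among microglia markers Cx3cr1, the fractalkine receptor, read 299, 298 and 364 in Early and 5181, 3962 and 2381 in Late (3.58 ± 0.32, adjusted p = 1.43e-06), and Itgam, an integrin, 268, 245 and 338 in Early and 4505, 3733 and 3223 in Late (3.75 ± 0.29). Siglech rose by 1.85 ± 0.23. The defining markers C1qa, Trem2, Fcrls and Tmem119 had only 12, 7, 17 and 12 counts in the 3 Early libraries together and 2, 2, 1 and 7 in Late. Of the 8 microglia markers tested 3 rose and 1 fell, with a lowest log2 fold change of -1.39. The list of 14 summed to 784 to 976 in Early and 6010 to 10211 in Late, most of it from Cx3cr1 and Itgam.

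Among oligodendrocyte markers 3 of 12 tested rose and 3 fell. Mbp, a main protein of central myelin, read 639.8, 515 and 541 in Early and 1469, 1349 and 1209 in Late (1.25 ± 0.22). Ermn fell by 1.47 ± 0.25 and Mog by 1.69 ± 0.49 (adjusted p = 0.0122, and 0.0517 without Late 3). The list of 13 summed to 1749.7 to 2258 in Early and 4809 to 10035 in Late, although its median log2 fold change was -0.62. Mbp made up only a part of that rise, and the largest change on the list was 3.11. The sum thus does not follow the typical member. Of 6 markers of oligodendrocyte precursors 3 fell and 0 rose, with Vcan at -1.05 ± 0.21. Among 14 astrocyte markers 3 rose and 1 fell, with Sox9 at 167, 154 and 209 in Early and 2623, 2181 and 1148 in Late (3.49 ± 0.32), S100b at 1.25 ± 0.28 and the glutamate transporter Slc1a2 at -1.05 ± 0.28. Of 10 blood vessel markers tested 0 rose and 1 fell.

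Of the interferon response genes 2 of 12 tested rose and 4 fell. Ifit1, which binds foreign RNA ends, read 146, 109.7 and 165 in Early and 2234, 1982 and 1138 in Late (3.67 ± 0.36), and B2m, the light chain of MHC class I, 41.8, 71.1 and 31.7 in Early and 9.61, 14.5 and 8.404 in Late (-2.17 ± 0.50). The Y-linked genes Uty (-1.43 ± 0.25), Eif2s3y (-1.35 ± 0.21) and Kdm5d (-1.01 ± 0.13) fell, while Ddx3y and Xist did not pass. The highest log2 fold change among these 5 sex-linked genes, Xist included, was -0.22. Each library pools several mice, and the labels give no sex. Whether the share of males differed between the pools was not tested.

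The calls were related to base composition. The median GC content of transcripts was 52.4% for genes that rose, 45.01% for genes that fell and 49.6% for all, with a value for 98.7% of tested genes. Of the 942 genes with under 40% GC, 14.7% rose and 44.8% fell. Of the 696 genes with over 60%, 44.0% rose and 3.59% fell. With the per-library GC trend removed, 2911 genes rose and 2833 fell, of which 2627 and 2415 were calls of the full set. Its use ended the calls of Calb1, Creb1, Grin2d, Homer1, Ier5, Inhba, Jund, Klf10, Rian, Shank3, Slc17a7, Snap25 and Tet2, and those of Gria2 and Rbfox3, whose values changed sign. By gene length, 23.9% rose and 18.2% fell of genes under 2 kb and 28.8% rose and 18.2% fell of those over 300 kb. By level, 4.47% rose and 15.3% fell in the lowest of 5 equal bins, and 43.2% rose and 16.7% fell in the highest. The part of base composition in the results by gene was not tested beyond this correction.

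**Figure D5:**
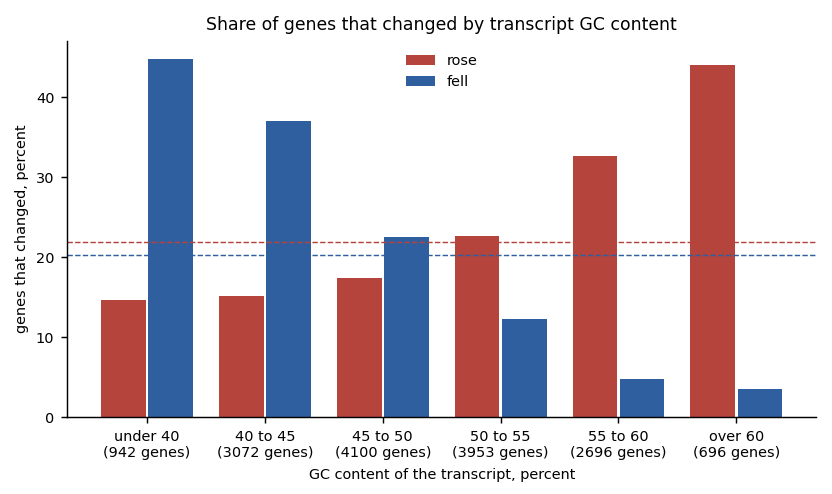
Percent of tested genes that rose (red) or fell (blue) in Late against Early (vertical axis) in 6 bins of transcript GC content (horizontal axis, percent), with dashed lines at the shares over all genes tested. The share that rose goes from 14.7% under 40% GC to 44.0% over 60%, and the share that fell from 44.8% to 3.59%.

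Reactivated, by its title and the protocol, comes from mice that met the cue again. Its comparison with Late shares the Late libraries with the one above, and its values are given side by side with no count of shared genes. Between Late and Reactivated 22.6% of genes passed, 12.3% higher in Late and 10.3% lower. Fosb stood at a mean of 64.4 in Reactivated (Late over Reactivated 1.05, adjusted p = 0.00467), Vgf at 1810.3 (0.25, adjusted p = 0.341) and Bdnf at 359 (0.98, adjusted p = 0.0119). Homer1 stood at 1075 (-0.73, adjusted p = 0.00366) and Egr1 at 327 (-1.15, adjusted p = 0.000455), both lower in Late. Of the genes with the largest rises, Mmrn2 stood at 205 in Reactivated, Suclg2 at 247 and Srd5a3 at 260.3, against Basal means of 82.5, 136 and 134, while Tmem38b stood at 7862 and did not pass in Late against Reactivated (1.04, adjusted p = 0.098).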

How the data were processed

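Nuclear RNA was measured in 12 libraries, 3 for each of 4 titles. The deposited table holds a count per gene and library: its name calls the values normalized, but all are whole numbers with unequal totals, so they were treated as raw counts. Bowtie2 2.0, Cufflinks 2.2, DESeq2 and mm9 are named in the submitters' processing notes, with no roles; counter, annotation and use of strand: not given in the sources used here. Per the labels' protocols, a stranded pico-input total RNA kit with ribosomal cDNA depletion and 15 PCR cycles was used on nucleic acid recovered from fixed nuclei, while the design text names SmartSeq2.

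Genes with a count of 10 or more in at least 3 of the 12 libraries (15668 of 24015) were fitted with edgeR 4.0.16 (R 4.3.3; TMM scaling, quasi-likelihood test of Late against Early within all 4 groups, Benjamini-Hochberg adjustment over all genes, threshold 0.05). No gene was left without a name, and 27 symbols had been turned into dates, at 0.122% to 0.147% of counts. Alternatives used other scalings, filters, limma 3.58.1, DESeq2 1.42.0, a replicate block, a GC correction, an Rn45s covariate and left-out libraries. The scripts were checked on simulated counts with known changes. Intervals cover counting error only. A replicate is a pool of mice, and counts at shared sequences depend on a counting step that is not given.

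The members and gene lists were chosen with earlier results of these data known. Genes were named by rule: the 15 largest rises and falls with a group mean of at least 50, the 10 of highest level that changed at least 2-fold in each direction, Arc, Fos, Fosb, Npas4, Egr1, Nr4a1, Bdnf and Rn45s whatever their result, up to 4 members of each list that passed, and members of the immediate early, effector and marker lists. Unnamed gene models, date symbols and small RNA loci stood outside it. The small RNA loci named, the listed genes named although they did not pass (such as Camk2a), Creb1, Gria2, Shank3, Sv2b, Epha7, Ndufc2, Cox7a2, Tet2, Nipbl, Rian, Gata2, Nkx2-1, Tbx5 and Gata3 were chosen after their values were seen. GC content, gene overlaps, promoters and miRNA sequences come from RefSeq GRCm38.p6, matched by symbol, a later build than mm9, and no coordinate of the count table was used. Some genes of the lists are counted but not reported here by name.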

Additional observations from a re-analysis of the deposited data

How the results depend on the processing

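Against 3441 genes that rose and 3187 that fell, scaling to the same total gave 1208 and 8607 (12.3% of calls higher in Late), no scaling 1087 and 3582 (23.3%), and upper quartile scaling 2482 and 4637 (34.9%), beside 51.9% here. Array weights with limma's voom gave 5053 and 5053. Libraries 1 and 2 summed gave 1933 and 1410, chosen after seeing the data, as was leaving out both number 3 libraries (3473 and 2875). With a term for the Rn45s percentage 61 rose and 33 fell. Median-ratio scaling, DESeq2, limma on log counts at a prior count of 1 or 5, no filter, a count of 50, a fit of the 6 libraries alone, removal of structural RNAs and the GC correction stayed within 1.5 times of both counts. Leaving out each library in turn gave 2581 to 3679 that rose and 2150 to 3196 that fell. Of 170 named genes that passed, 10 lost the call in at least 1 of these fits.

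The fit with replicate number as a block gave 3535 and 3077, of which 3382 and 3004 were calls without it, and with the GC correction as well 2926 and 2756. Same-numbered libraries did not deviate together (correlations of -0.07, -0.08 and -0.20), so the block is given for these counts only. It changed no call of a named gene unless combined with the GC correction.

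Of 177 named genes, log2 fold changes turned sign as follows, and the cause was not tested. With the same total they were Camk2a -0.42, Jund -0.0014, Npas4 -0.63, Nr4a1 -0.70, Rbfox3 -0.38, Rpl4 -0.0591 and Slc17a7 -0.15. With no scaling it was Rbfox3 -0.0757, with the GC correction they were Gria2 0.0278 and Rbfox3 -0.044, and with block and GC correction Gria2 0.0283 and Rbfox3 -0.0468. With the Rn45s term, which moves with the groups, they were Calb1 0.0797, Camk1 -0.67, Cdc42 0.0007, Dlgap3 -0.23, Egr1 0.52, Eif3a -0.08, Epha7 0.0396, Gabra5 0.20, Gria2 0.20, Grin2b 0.0093, Grin2d -0.29, Hdac5 -0.53, Hs3st4 -0.32, Igip 1.43, Jund -0.73, Kcna1 0.0519, Klf10 0.31, Ldb1 -0.42, Lmtk3 -0.0927, Lrrtm2 0.38, Ndufc2 0.67, Neurod2 -0.10, Nipbl 0.40, Nr4a2 1.16, Nrn1 0.14, Plec -0.41, Rims1 -0.0046, Rn45s -0.55, Rpl4 -0.0127, Rpph1 -0.26, Shank3 -0.37, Sptbn4 -0.41, Stxbp5l 0.11, Uty 0.29 and Zfp946 0.43. The median of a list turned sign in 22 of 50 lists with the same total, 22 with no scaling, 15 with upper quartile scaling and 8 with the GC correction. Pools of 3 per group bound what can be seen, since no exact test of a single value can go below 0.1, and genes with few counts carry wide intervals.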
